A study of Mus musculus with 9 samples.

Results

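The genes examined here are 9 mouse genes of the amyloid precursor family and its processing: App, Aplp1, Aplp2, Bace1, Psen2, Ncstn, Adam10, Sorl1 and Bin1. They were chosen by name and role, with earlier results of these data known, and found by matching each gene identifier to its symbol. They are 9 of 55401 annotated genes, and 9 of 9 were among the 16046 genes tested after the filter on low counts. RNA came from cortical nuclei sorted for NeuN, a protein of neuronal nuclei, from mice of 7 to 9 months. In 3 libraries the mice carried a P301S tau transgene and received the Cdk5i peptide, in 3 they carried the same transgene and received a scrambled peptide, and in 3 they were wild type without treatment. Peptides were injected intraperitoneally on alternate days at 20 mg per kg. P301S is a mutation of human tau found in inherited frontotemporal dementia, and Cdk5 is a neuronal kinase that phosphorylates tau. The labels used here give neither the promoter of the transgene nor whether a library is 1 animal, and the p-values below then reflect library-to-library spread, which may be technical. Wild-type mice received no peptide, so genotype and injection cannot be told apart in the comparisons with them. None of the 3 groups carries an amyloid transgene according to the labels, so these are levels of the endogenous mouse genes.

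The amyloid precursor protein is a membrane protein that neurons make in large amounts and that is cut by several proteases. Cutting by beta-secretase and then by gamma-secretase releases amyloid-beta, the peptide of the plaques of Alzheimer's disease, while cutting by alpha-secretase falls within the amyloid-beta stretch and prevents its release. Cutting depends on where the precursor and the proteases meet in the cell, so sorting and endocytosis genes also bear on it. These are known roles of the proteins, and no protein or peptide was measured here.

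The promoters of the 3 precursor paralogues are shown because these genes ranked highest of the 9 per length, as given further on. Each runs from 250 bases before to 50 bases after the RefSeq start of the gene on GRCm38.p6, 5′ to 3′ on the gene's own strand, which is the minus strand for each. They lie at chr16:85173658-85173957 for App, chr7:30445533-30445832 for Aplp1 and chr9:31211799-31212098 for Aplp2. Capitals mark matches on either strand to GGGCGG (the GC box, bound by Sp1-type factors) or to CCAAT.
App: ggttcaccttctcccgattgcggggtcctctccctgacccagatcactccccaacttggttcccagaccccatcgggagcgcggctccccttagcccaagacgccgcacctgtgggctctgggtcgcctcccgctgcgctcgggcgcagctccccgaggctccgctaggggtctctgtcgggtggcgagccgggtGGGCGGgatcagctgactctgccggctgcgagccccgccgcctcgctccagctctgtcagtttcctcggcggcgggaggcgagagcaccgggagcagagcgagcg
Aplp1: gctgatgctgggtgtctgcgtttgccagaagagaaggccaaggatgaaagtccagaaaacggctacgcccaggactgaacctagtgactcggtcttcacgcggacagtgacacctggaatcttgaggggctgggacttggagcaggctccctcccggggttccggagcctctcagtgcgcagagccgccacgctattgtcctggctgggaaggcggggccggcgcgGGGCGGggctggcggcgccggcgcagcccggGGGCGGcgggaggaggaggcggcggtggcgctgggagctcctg
Aplp2: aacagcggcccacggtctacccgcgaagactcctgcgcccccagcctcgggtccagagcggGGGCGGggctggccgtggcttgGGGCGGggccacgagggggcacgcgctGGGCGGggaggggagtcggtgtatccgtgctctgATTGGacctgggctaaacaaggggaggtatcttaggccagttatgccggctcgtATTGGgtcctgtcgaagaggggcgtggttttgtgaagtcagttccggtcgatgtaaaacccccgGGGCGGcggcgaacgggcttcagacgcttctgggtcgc

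The App window held 1 match to GGGCGG, that of Aplp1 held 2 and that of Aplp2 held 4, and 2 matches to CCAAT were found in the Aplp2 window alone of the 3. Among all 32851 promoters of this length in the RefSeq table, 35.66% held GGGCGG and 37.41% held CCAAT. None of the 3 windows held TATAAA, which 13.62% of all promoters held, or CACGTG, held by 7.15%. Their share of G and C was 71% for App, 68.67% for Aplp1 and 67% for Aplp2, against a median of 52.67% over all promoters. Of the 9 genes, 7 had an entry in that table. Among the windows of the other 4 genes with an entry, the share of G and C ran from 44% at the second listed start of Sorl1 to 73.33% at Adam10. These matches describe the letters only.

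The libraries held 21584712 to 26715938 counts. The neuronal markers Rbfox3 (the NeuN gene), Snap25, Syt1, Slc17a7, Gad1 and Gad2 were read in every library and summed to 5112 to 6195 CPM with Cdk5i, 5129 to 5791 CPM with scrambled peptide and 5423 to 5985 CPM in wild type. CPM is the count of a gene relative to the total of its library, corrected for composition by TMM factors. Oligodendrocyte markers, of which 10 of 10 were read, summed to 79.6 to 125 CPM with Cdk5i, 85.1 to 112 CPM with scrambled peptide and 75.2 to 85.0 CPM in wild type. The scrambled-peptide libraries lay just above the wild-type ones in this sum. Most of it was Mbp, while Mog lay at 0.142 to 0.386 CPM over the 9 libraries. Astrocyte markers summed to 351 to 518, 399 to 516 and 468 to 550 CPM in the same order of groups, and endothelial markers to 1.65 to 2.44, 1.12 to 1.76 and 1.14 to 2.11 CPM. Nearly all of the astrocyte sum was Slc1a2, at 338 to 529 CPM over the 9 libraries, while Gfap lay at 0.421 to 1.26 CPM. Markers of oligodendrocyte precursors summed to 12.6 to 23.3, 13.8 to 21.7 and 19.3 to 24.3 CPM, most of it Vcan at 10.7 to 23.3 CPM over the 9 libraries. App, Aplp1 and Bin1 are also expressed by glia, and the part of such RNA in the values below was not tested. In such bulk samples, fewer cells of a type and less RNA per cell cannot be told apart.

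Levels of the 9 genes were first set side by side per kb of annotated gene span, since whole genes, introns included, were counted. Aplp1 stood highest at 10.5 ± 1.51 CPM per kb with Cdk5i, 11.2 ± 0.468 with scrambled peptide and 11.6 ± 0.870 in wild type (SD, n = 3). App followed at 3.50 ± 0.170, 3.58 ± 0.129 and 3.59 ± 0.154 CPM per kb, and Aplp2 at 2.94 ± 0.0382, 3.05 ± 0.257 and 3.10 ± 0.286 CPM per kb, in the same order of groups (SD, n = 3). In each of the 3 groups the ranges of these 3 genes did not overlap, so the order Aplp1, App, Aplp2 held in every library.

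Bin1, Bace1 and Sorl1 came next at close levels. With Cdk5i they lay at 2.07, 1.96 and 1.99 CPM per kb, with scrambled peptide at 2.10, 1.91 and 1.87, and in wild type at 2.02, 1.97 and 1.79. Ranges of Bace1 and Sorl1 overlapped in each group, so these neighbours cannot be ordered, while Bin1 was clear of Bace1 with scrambled peptide only. Below them stood Ncstn at 1.07 ± 0.0601 CPM per kb with Cdk5i, 1.14 ± 0.135 with scrambled peptide and 1.11 ± 0.0941 in wild type (SD, n = 3). Adam10 lay at 0.880, 0.886 and 0.912 CPM per kb, and Psen2 at 0.261, 0.290 and 0.250, in the same order of groups. The ranges of Ncstn, Adam10 and Psen2 did not overlap within any of the 3 groups.

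**Figure D1:**
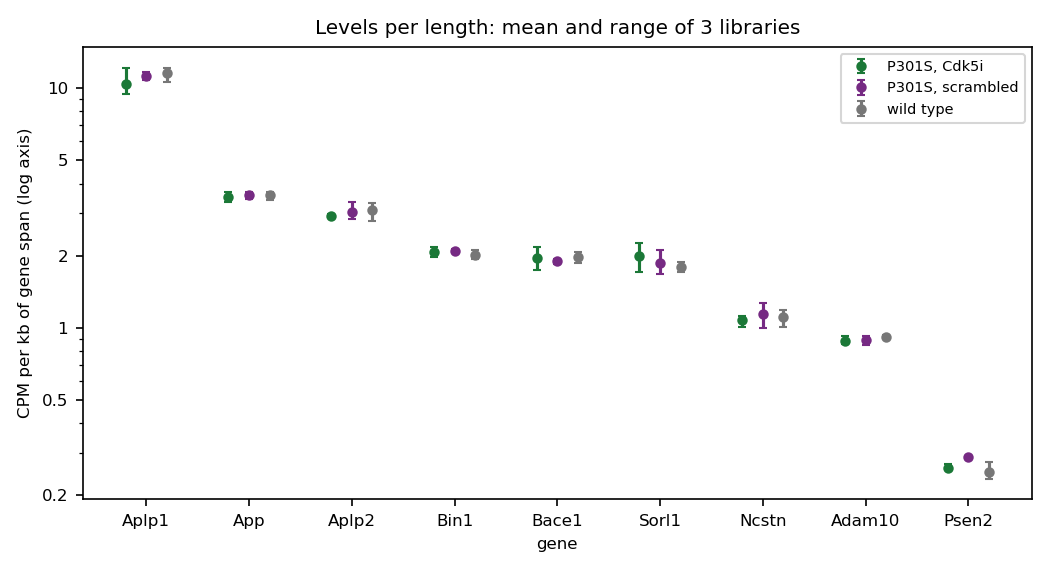
Levels of the 9 genes in CPM per kb of gene span, on a log axis, as the mean and range of 3 libraries for P301S mice with Cdk5i, P301S mice with scrambled peptide and wild-type mice. Aplp1 lies at or above 9.46 CPM per kb in every library and Psen2 at or below 0.293, and the 3 groups stand beside each other for each gene.

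Placed among the 16046 genes tested, Aplp1 ranked 128 per kb, App 629 and Aplp2 813, while Psen2 ranked 10653. By CPM without regard to length App ranked 188, the highest of the 9. Its span of 224 kb gave 16361 to 21696 read pairs per library. Exons make up 5.80% of the App span in the GENCODE M21 annotation of the same build, 4.85% of that of Adam10, 7.09% of that of Sorl1 and 7.04% of that of Bin1, against 28.6% for Aplp1, 24.6% for Bace1 and 23.7% for Ncstn. The counts do not separate exonic from intronic reads, so the levels are those of RNA in the nucleus, unspliced RNA included, and the order per kb need not be that of the mature messenger RNAs. No other annotated gene overlapped any of the 9 on the same strand, so no reads were lost to such overlap.

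The precursor family is taken first. App (ENSMUSG00000022892, chromosome 16, 84949685 to 85173766, GRCm38) encodes the precursor itself. It measured 752, 827 and 777 CPM in Cdk5i libraries, 824, 770 and 815 CPM in scrambled-peptide libraries and 830, 766 and 821 CPM in wild-type libraries. The 3 groups overlapped, and the highest of the 9 libraries exceeded the lowest by 1.10-fold. The median gene tested spanned 1.46-fold, but App ranked 188 of 16046 by CPM and the genes were not matched for counts. The log2 fold change of App was -0.0043 for scrambled peptide against wild type (95% interval -0.15 to 0.15), -0.03 for Cdk5i against scrambled peptide (-0.18 to 0.12) and -0.04 for Cdk5i against wild type (-0.19 to 0.11). As folds, these intervals run from 0.899 to 1.11, 0.881 to 1.08 and 0.878 to 1.08. The edgeR quasi-likelihood test with Benjamini-Hochberg adjustment over all genes gave App an adjusted p of 0.989, 0.986 and 0.884 in that order.

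Aplp1 (ENSMUSG00000006651, chromosome 7, 30434982 to 30445535) encodes a paralogue that lacks the amyloid-beta stretch and is found mainly in the nervous system. Its level was 99.9, 129 and 102.4 CPM in Cdk5i libraries, 118, 124 and 114 CPM in scrambled-peptide libraries and 127, 112 and 128 CPM in wild-type libraries. Of the 3 Cdk5i libraries 2 lay below the other 6 libraries and the third above them. The log2 fold change was -0.15 for Cdk5i against wild type (standard error 0.09, edgeR adjusted p = 0.594). Between the peptides Aplp1 had a log2 fold change of -0.10 (95% interval -0.30 to 0.10), and for scrambled peptide against wild type one of -0.04 (-0.24 to 0.16). Without Cdk5i replicate 2 the value for Cdk5i was -0.27 against wild type and -0.23 against scrambled peptide, without Cdk5i replicate 1 it was -0.08 and -0.04, and without Cdk5i replicate 3 it was -0.09 and -0.05.

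Aplp2 (ENSMUSG00000031996, chromosome 9, 31149557 to 31211815) encodes the more widely expressed paralogue. It measured 183, 185 and 180 CPM in Cdk5i libraries, 186, 177 and 208 CPM in scrambled-peptide libraries and 200, 173 and 207 CPM in wild-type libraries. The Cdk5i libraries lay within the range of the other 6. Its log2 fold change was -0.02 for scrambled peptide against wild type, -0.06 for Cdk5i against scrambled peptide and -0.08 for Cdk5i against wild type, with 95% intervals that reached no lower than -0.25 and no higher than 0.15. Of the read pairs of the 3 paralogues together, App took 72.8 ± 0.429% with Cdk5i, 72.2 ± 0.712% with scrambled peptide and 71.9 ± 0.956% in wild type (SD, n = 3). These shares overlapped between groups.

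**Figure D2:**
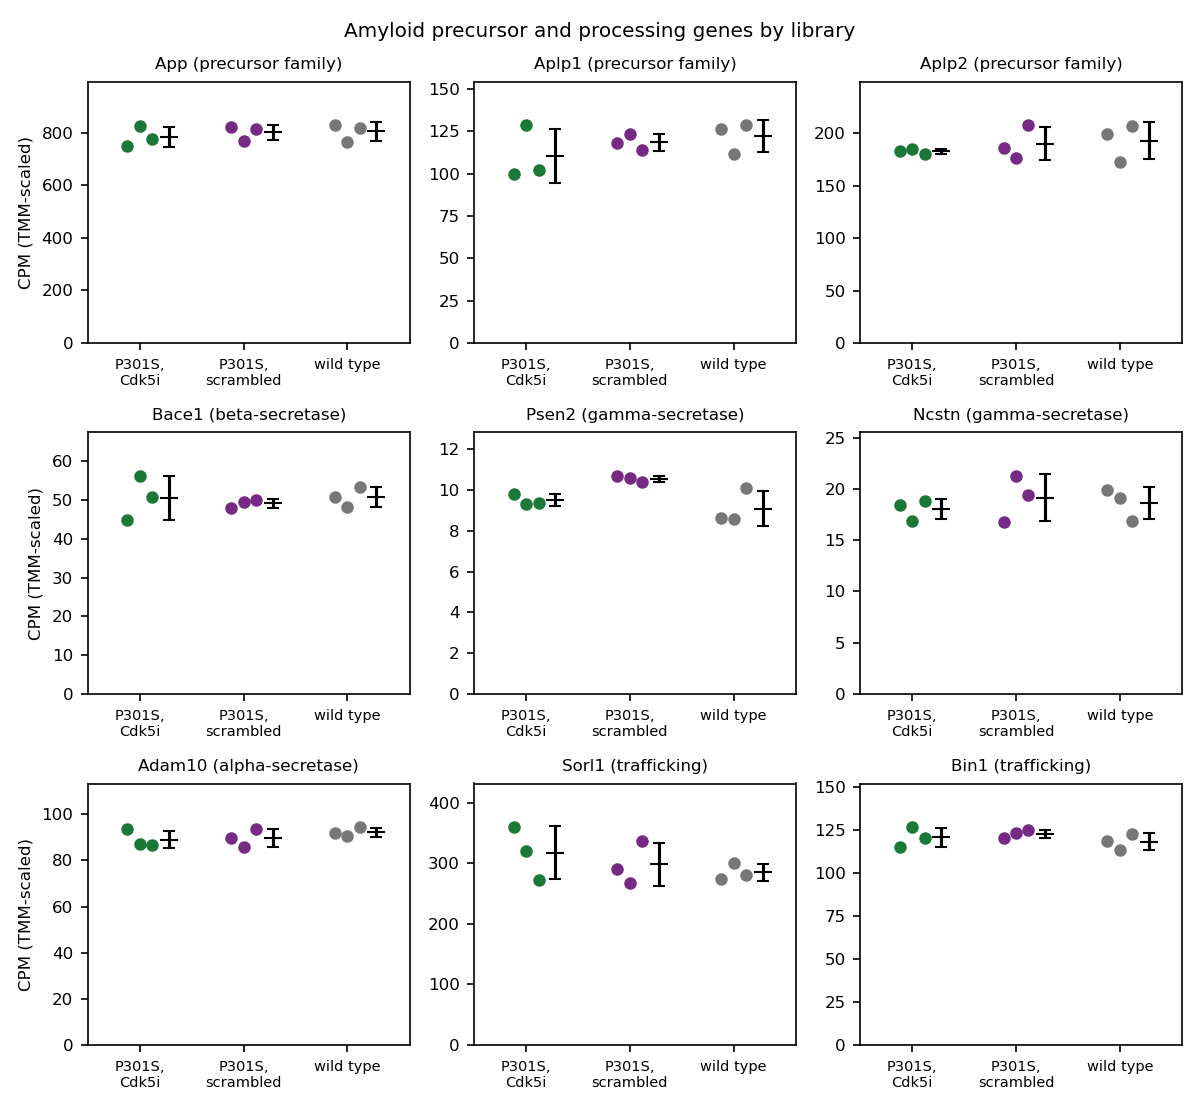
CPM of the 9 genes in each of the 9 libraries, by group, with the mean and SD of 3 libraries in black and the axis starting at 0. App lies between 752 and 830 CPM in all 9 libraries, and Psen2 is the single gene whose scrambled-peptide libraries stand clear of the other 6.

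Among the proteases, Bace1 (ENSMUSG00000032086, chromosome 9, 45838580 to 45864399) encodes the main beta-secretase of neurons. It measured 44.9, 56.2 and 50.7 CPM in Cdk5i libraries, 47.9, 49.6 and 50.1 CPM in scrambled-peptide libraries and 50.9, 48.3 and 53.4 CPM in wild-type libraries. The groups overlapped, and the lowest and the highest of the 9 values were both Cdk5i libraries. The log2 fold change of Bace1 was -0.05 for scrambled peptide against wild type (95% interval -0.22 to 0.12), 0.04 for Cdk5i against scrambled peptide (-0.13 to 0.21) and -0.0065 for Cdk5i against wild type (-0.18 to 0.16).

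Adam10 (ENSMUSG00000054693, chromosome 9, 70678997 to 70780229) encodes the main alpha-secretase of neurons. It was among the steadiest of the 9 genes, at 93.5, 87.2 and 86.5 CPM in Cdk5i libraries, 89.6, 85.8 and 93.6 CPM in scrambled-peptide libraries and 91.8, 90.6 and 94.5 CPM in wild-type libraries. The highest library exceeded the lowest by 1.10-fold. Its log2 fold change was -0.04 for scrambled peptide against wild type (95% interval -0.17 to 0.09), -0.0097 for Cdk5i against scrambled peptide (-0.14 to 0.12) and -0.05 for Cdk5i against wild type (-0.18 to 0.08). By CPM without regard to length Bace1 lay below Adam10, at 44.9 to 56.2 against 85.8 to 94.5 CPM over the 9 libraries. Per kb of gene span the ratio of Bace1 to Adam10 was 2.24 ± 0.326 with Cdk5i, 2.15 ± 0.0996 with scrambled peptide and 2.16 ± 0.0658 in wild type (SD, n = 3). Exons make up 24.6% of the Bace1 span and 4.85% of that of Adam10. The direction of this ratio thus depends on the division by span and need not be that of the mature messenger RNAs. A two-sided exact permutation test of this ratio gave p = 0.7 for Cdk5i against either other group and p = 1 for scrambled peptide against wild type. With 3 libraries a group the smallest p this test allows is 0.1, so it could not reach 0.05 whatever the values. Over 12 such permutation tests the lowest adjusted p was 0.764. Those 12 also took in Ncstn over Psen2 per kb and the App share of the 3 paralogues, per kb and in read pairs.

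Gamma-secretase is a complex of presenilin, nicastrin and further subunits, in which presenilin holds the catalytic site. Psen2 (ENSMUSG00000010609, chromosome 1, 180227004 to 180263438) encodes a presenilin. It was the lowest of the 9 genes, with 182 to 277 read pairs per library. It measured 9.82, 9.30 and 9.36 CPM in Cdk5i libraries, 10.7, 10.6 and 10.4 CPM in scrambled-peptide libraries and 8.63, 8.57 and 10.1 CPM in wild-type libraries. The 3 scrambled-peptide libraries lay above the other 6. For scrambled peptide against wild type its log2 fold change was 0.21 (standard error 0.10, 95% interval -0.0066 to 0.43, edgeR adjusted p = 0.515). For Cdk5i against scrambled peptide it was -0.15 (95% interval -0.37 to 0.07, edgeR adjusted p = 0.953), and for Cdk5i against wild type 0.06 (-0.16 to 0.28). Psen2 thus had the largest estimate of the 9 genes in either comparison with the scrambled-peptide group, without passing the test. These comparisons share the scrambled-peptide libraries. The oligodendrocyte marker sum, mostly Mbp, lay at 85.1 to 112 CPM in scrambled-peptide libraries, just above the 75.2 to 85.0 CPM of wild-type libraries. Of its members, Ermn and Opalin had lower means with scrambled peptide, 0.393 and 0.150 CPM against 0.654 and 0.249 in wild type. Cdk5i libraries, lower in Psen2 than the scrambled-peptide ones, had 79.6 to 125 CPM for that sum, overlapping both other groups. The part of such RNA in the Psen2 values was not tested.

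Ncstn (ENSMUSG00000003458, chromosome 1, 172066013 to 172082795) encodes nicastrin, the subunit that takes part in substrate recognition. Its level was 18.4, 16.9 and 18.8 CPM in Cdk5i libraries, 16.7, 21.2 and 19.4 CPM in scrambled-peptide libraries and 19.9, 19.1 and 16.8 CPM in wild-type libraries. The groups overlapped, and the scrambled-peptide group held both the lowest and the highest value. Ncstn had log2 fold changes of 0.04 for scrambled peptide against wild type, -0.09 for Cdk5i against scrambled peptide and -0.05 for Cdk5i against wild type, each with a standard error of 0.10.

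Of the trafficking genes, Sorl1 (ENSMUSG00000049313, chromosome 9, 41964720 to 42124297) encodes a sorting receptor that binds the precursor and returns it from endosomes to the Golgi, away from beta-secretase. It varied most of the 9 genes, at 360, 321 and 272 CPM in Cdk5i libraries, 290, 267 and 337 CPM in scrambled-peptide libraries and 274, 300 and 281 CPM in wild-type libraries. The groups overlapped, and the highest library exceeded the lowest by 1.35-fold. Its log2 fold change was 0.16 for Cdk5i against wild type (95% interval -0.07 to 0.38, edgeR adjusted p = 0.616), 0.09 for Cdk5i against scrambled peptide (-0.14 to 0.32) and 0.07 for scrambled peptide against wild type (-0.16 to 0.29). For Cdk5i against wild type it was 0.06 without Cdk5i replicate 1 and 0.26 without Cdk5i replicate 3, so the size rests on single libraries.

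Bin1 (ENSMUSG00000024381, chromosome 18, 32377230 to 32435737) encodes a membrane-bending protein of endocytosis that is a known risk locus of Alzheimer's disease in humans. It measured 116, 127 and 120 CPM in Cdk5i libraries, 120, 123 and 125 CPM in scrambled-peptide libraries and 119, 113 and 123 CPM in wild-type libraries. The groups overlapped. For Bin1 the log2 fold change was 0.05 for scrambled peptide against wild type (95% interval -0.07 to 0.18), -0.02 for Cdk5i against scrambled peptide (-0.15 to 0.10) and 0.03 for Cdk5i against wild type (-0.10 to 0.16).

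Counted by comparison, 0 of the 9 genes passed the edgeR test for scrambled peptide against wild type, where 0.081% of all genes tested did, and 0 had an unadjusted p under 0.05, against 10.1% of all genes. DESeq2 and limma-voom called 0 of the 9 as well. The 9 log2 fold changes ran from -0.05 to 0.21 with a median of -0.0043, beside a median of 0.0084 over all genes tested, and 4 of 9 were positive against 51.7% of all genes. With total counts in place of TMM factors 9 of 9 were positive, against 68.9% of all genes. The groups did not overlap for 1 of the 9, Psen2, against 16.3% of all genes.

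For Cdk5i against scrambled peptide, which asks what the Cdk5i peptide did in the transgenic mice, 0 of the 9 passed edgeR (0.0125% of all genes), and 0 had an unadjusted p under 0.05 (5.33% of all genes). DESeq2 and limma-voom called 0 of the 9. Here 2 of 9 were positive, against 47.2% of all genes, with a median of -0.03 beside -0.0095 over all genes. With total counts 1 of 9 was positive, against 31.1% of all genes. The groups did not overlap for 1 of the 9, again Psen2, against 10.3% of all genes.

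For Cdk5i against wild type, 0 of the 9 passed edgeR (0.0748% of all genes), 0 had an unadjusted p under 0.05 (11% of all genes), and DESeq2 and limma-voom called 0. Values ran from -0.15 for Aplp1 to 0.16 for Sorl1, with 3 of 9 positive against 48.8% of all genes and a median of -0.04 beside -0.0051. The groups overlapped for each of the 9, while 16.3% of all genes had groups that did not. The 27 intervals bound any change: the lowest bound was -0.37 and the highest 0.43, both for Psen2. A p that misses the threshold does not show that levels were equal.

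**Figure D3:**
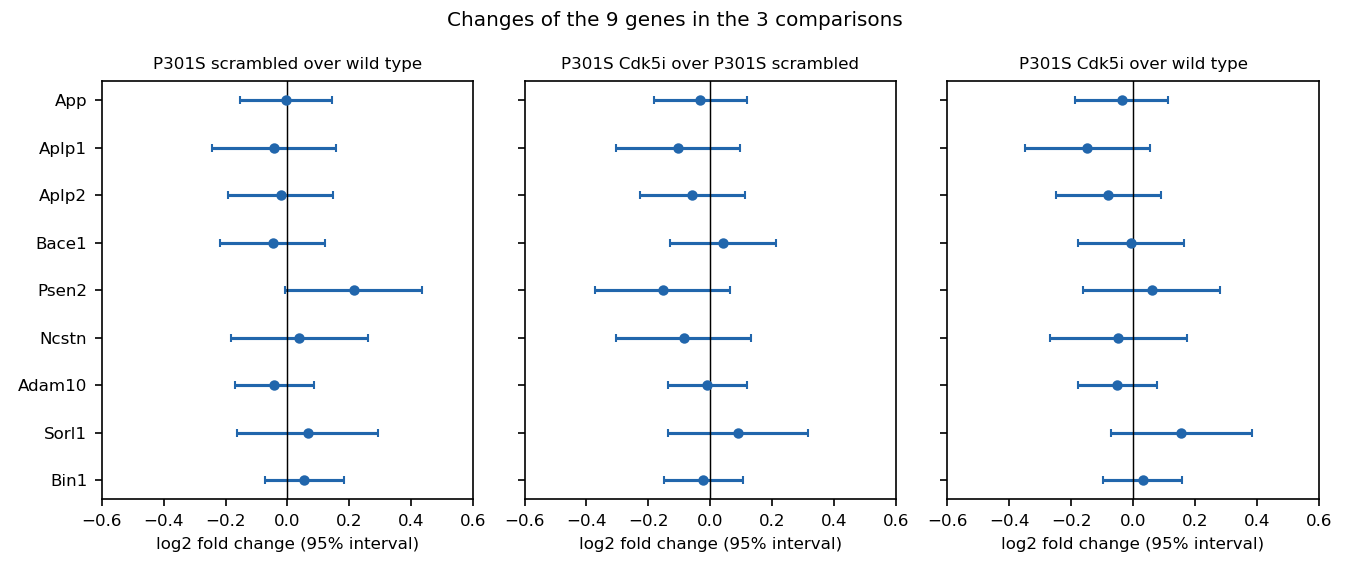
Log2 fold changes of the 9 genes with 95% intervals from the edgeR fit, for P301S with scrambled peptide over wild type, P301S with Cdk5i over P301S with scrambled peptide, and P301S with Cdk5i over wild type. Each of the 27 intervals includes 0, the closest to leaving it out being that of Psen2 in the first panel (-0.0066 to 0.43).

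Further genes of precursor cutting, sorting and clearance, 52 in all and 52 tested, were read beside the 9. With edgeR 0 of the 52 passed in any of the 3 comparisons. An unadjusted p under 0.05 was found for 5 of 52 genes in the first of the comparisons just given, 3 in the second and 6 in the third, beside 10.1, 5.33 and 11% of all genes. DESeq2 called 2, 0 and 1 of them, beside 75, 27 and 113 of all 16046 genes tested. With limma-voom it was 0 in each, beside 9, 2 and 4 of all genes. Their median log2 fold changes were 0.0071, 0.0040 and 0.0083, with 27, 26 and 30 of 52 positive.

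The lowest value for scrambled peptide against wild type was that of Ide (chromosome 19, 37268743 to 37337852), which encodes insulin-degrading enzyme, a protease that also breaks down amyloid-beta. Ide measured 65.0, 66.4 and 57.2 CPM in Cdk5i libraries, 66.4, 64.5 and 66.4 CPM in scrambled-peptide libraries and 74.5, 93.7 and 103 CPM in wild-type libraries. The 6 P301S libraries lay below the 3 wild-type libraries. Scrambled peptide against wild type gave Ide a log2 fold change of -0.46 (standard error 0.10, edgeR adjusted p = 0.221). With Cdk5i against wild type it had -0.52 (standard error 0.10, edgeR adjusted p = 0.121), again the lowest of the list. These comparisons share the wild-type libraries. Without wild-type replicate 1, the wild-type library lowest in Ide, its edgeR adjusted p was 0.0322 and 0.0139, and with DESeq2 it was 0.0177 and 0.00275. Over the 17 alternatives in each comparison the adjusted p of Ide ran from 3.18e-06 to 0.617 and from 4.29e-08 to 0.327. It passed in 3 of the 17 in each, those just given and the fit with no low-count filter, which gave the lowest values.

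Between the peptides Ide had a log2 fold change of -0.06. The highest value for scrambled peptide against wild type among genes with a mean of at least 50 counts was that of Ece1, another amyloid-degrading protease, with 0.24 (edgeR adjusted p = 0.611). Under the same minimum, the extremes for Cdk5i against scrambled peptide were Cd2ap, an adaptor of endocytosis, at 0.29 (edgeR adjusted p = 0.888) and Adam9, a protease of the family of Adam10, at -0.22 (edgeR adjusted p = 0.783). For Cdk5i against wild type the highest was the sorting receptor gene Sorcs2, which averaged 296 ± 33.7 CPM in Cdk5i libraries and 229 ± 25.9 CPM in wild-type libraries (SD, n = 3). Its log2 fold change was 0.37 (edgeR adjusted p = 0.235), and these groups did not overlap. Over the 17 alternatives the adjusted p of Sorcs2 ran from 8.85e-05 to 0.681, and that of Cd2ap between the peptides from 0.0208 to 0.9998, each passing in 1. A larger estimate, 0.93 for Ece2, rests on 6 to 29 read pairs per library, and 96.6% of that gene is overlapped by another on the same strand.

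Sorcs3, a sorting receptor gene of the same family as Sorl1, was singled out after its values were seen. It measured 665, 756 and 595 CPM in Cdk5i libraries, 579, 563 and 614 CPM in scrambled-peptide libraries and 778, 897 and 740 CPM in wild-type libraries. The scrambled-peptide libraries lay below the wild-type ones (log2 fold change -0.46, edgeR adjusted p = 0.182). DESeq2 gave Sorcs3 an adjusted p of 0.00435 in that comparison, and over the 17 alternatives it ran from 4.27e-07 to 0.587, passing in 2.

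**Figure D4:**
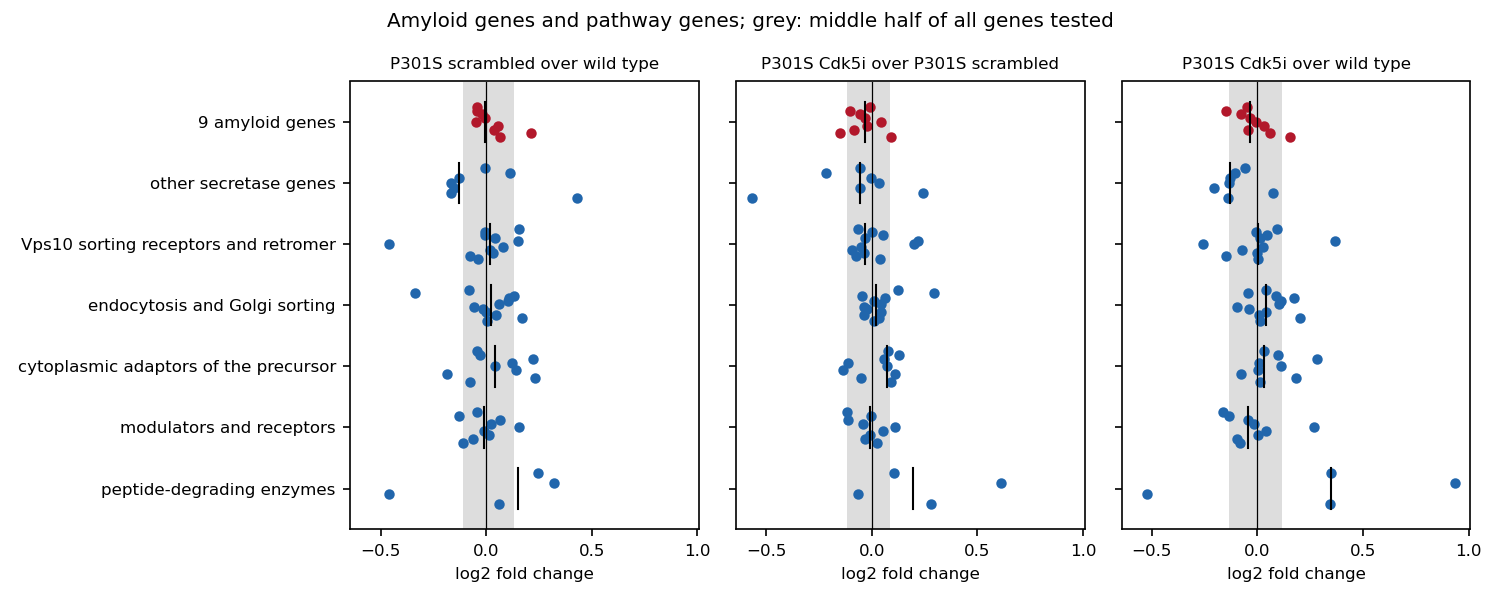
Log2 fold changes of the 9 genes (red) and of 52 further genes by role (blue) in the 3 comparisons, with black lines at the median of each row and a grey band over the interquartile range of all 16046 genes tested. Ide is the leftmost point of the peptide-degrading enzymes in each panel against wild type, at -0.46 and -0.52.

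By role, the other secretase genes (Bace2, Adam17, Adam9 and further gamma-secretase subunits) had a median log2 fold change of -0.13 for scrambled peptide against wild type, with 2 of 7 positive, -0.05 for Cdk5i against scrambled peptide, with 2 of 7 positive, and -0.13 for Cdk5i against wild type, with 1 of 7 positive. Cytoplasmic adaptors of the precursor had medians of 0.04, 0.07 and 0.03, with 5, 6 and 8 of 9 positive. Over all genes tested 51.7, 47.2 and 48.8% were positive in the same order, and 0 genes of any role passed edgeR. Both comparisons with wild type share its libraries. The Vps10 sorting receptors and retromer had medians of 0.02, -0.03 and 0.0011, and the endocytosis and Golgi sorting genes 0.02, 0.02 and 0.04. Modulators and receptors had -0.01, -0.0072 and -0.05. Of the 4 peptide-degrading enzymes, 3 were positive and Ide negative in each comparison.

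Across the 9 libraries, which share their group structure, the log2 CPM of the 36 pairs of the 9 genes had Pearson correlations from -0.45 (App with Ncstn) to 0.73 (Bace1 with Bin1), with a median of 0.06. App had 0.73 with Aplp1 and 0.70 with Aplp2. Over 10585 other protein-coding genes, those with the highest Pearson correlation to App were Cbfb (0.98), Lhx2 (0.97), Gng2 (0.95), Gk (0.94) and Igfbp5 (0.94), over 9 libraries. Spearman correlations of these genes to App, taken on ranks, were lower, at 0.85, 0.87, 0.73, 0.72 and 0.88 in the same order. The genes were picked by their Pearson correlation, and App itself spanned 1.10-fold, so the values describe these libraries only.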

How the data were processed

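RNA of sorted NeuN-positive cortical nuclei was extracted with a kit made for fixed tissue and read as pairs of 40 bases from strand-specific libraries, per the labels. The deposited values are raw counts of read pairs per gene, with a table for each library. Per the file headers, featureCounts 2.0.0 counted whole genes, reversed strand, with an Ensembl annotation of GRCm38. Also named, in the submitters' processing notes, are STAR 2.7.9a, Subread 2.0.0 and DESeq2 1.36.0 with no role. With this counting, pairs that overlap 2 genes on 1 strand are left out.

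The 9 genes, the 52 further genes and the marker lists were chosen with earlier results of these data known. The sum of the microglial markers is not reported here. Symbols were matched for 55141 of 55401 identifiers. The main test used edgeR 4.0.16 (R 4.3.3). Genes passing filterByExpr (at least 10 counts in enough libraries) were kept, and TMM factors and 1 robust quasi-likelihood fit of 3 group means over 9 libraries were used, with 6 residual degrees of freedom. P-values were adjusted over all 16046 genes by Benjamini-Hochberg at 0.05. Standard errors are the log2 fold change over the square root of F. The median standard error over genes was 0.14, and the 9 genes had 0.06 to 0.10. Chi-square per gene between libraries of the same group was 8.19 to 24.3, so no 2 of them were 1 library read again. It cannot tell separate preparations of 1 animal from separate animals. The procedure was tested on simulated data. Of the 52 genes those named are, per comparison, any past the threshold and the highest and lowest log2 fold change at a mean of at least 50 counts. Alternatives were DESeq2 1.42.0, limma-voom (limma 3.58.1) with sample weights, other scalings, filters and dispersion, a fit of 2 groups, the replicate number as a block, a gene length offset and each library left out.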

Additional observations from a re-analysis of the deposited data

How the results depend on the processing

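None of the 9 genes passed the threshold in any of the 51 alternative fits over the 3 comparisons, the lowest adjusted p being 0.306. The labels do not say whether the replicate numbers pair the libraries. Deviations of same-numbered libraries from their group means correlated at -0.31 to 0.17. Those of differently numbered libraries correlated at -0.15 to 0.28, a like range, so these values cannot decide it. With the replicate block 0 of the 9 genes passed in each comparison, and 2 genes of all tested passed in each, against 13 without it for scrambled peptide against wild type, 2 between the peptides and 12 for Cdk5i against wild type. In the same order, DESeq2 called 75, 27 and 113 genes of all tested and no low-count filter 318, 159 and 408. A filter of 50 counts gave 6, 2 and 6, non-robust dispersion 6, 2 and 3, limma-voom 9, 2 and 4, and a fit of the 2 groups compared 15, 2 and 2. Leaving out 1 library gave 2 to 17, 2 to 18 and 2 to 7. With total counts in place of TMM, 10 of 14, 2 of 2 and 10 of 13 called genes were higher, against 6 of 13, 2 of 2 and 7 of 12.

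Among the log2 fold changes of the 9 genes under these alternatives, 428 values kept their sign and 31 changed it. For scrambled peptide against wild type, total counts gave log2 fold changes of 0.0713 for App, 0.0327 for Aplp1, 0.0510 for Aplp2, 0.0276 for Bace1 and 0.0330 for Adam10, so that 9 of 9 genes were positive, with a median over all genes of 0.0842 in place of 0.0084. Between the peptides 1 of 9 was positive with total counts and 4 of 9 without scrambled replicate 3, against 2 of 9. The gene length offset gave App 0.0436 for scrambled peptide against wild type, and 0.0445 with the replicate block. Between the peptides the offset alone gave App -0.0958. With total counts Bace1 had -0.0128 for Cdk5i against scrambled peptide and 0.0148 for Cdk5i against wild type, where no low-count filter gave 0.00661. Leaving out 1 library gave, for scrambled peptide against wild type, -0.0390 to 0.0239 for App, -0.0951 to 0.0298 for Aplp2, -0.0433 to 0.127 for Ncstn and -0.0319 to 0.137 for Sorl1. For Cdk5i against scrambled peptide it gave -0.102 to 0.0164 for Aplp2, -0.0405 to 0.120 for Bace1, -0.168 to 0.00122 for Ncstn, -0.0458 to 0.0279 for Adam10, -0.00815 to 0.197 for Sorl1 and -0.0590 to 0.00859 for Bin1. For Cdk5i against wild type it gave -0.0876 to 0.0725 for Bace1, -0.114 to 0.00251 for Ncstn and -0.00403 to 0.0635 for Bin1. The cause was not tested. Psen2 had the fewest read pairs of the 9 genes, 182 to 277 per library, and kept its sign in all 17 alternatives of each comparison.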
